A study of Chlamydomonas reinhardtii with 12 samples.

Results

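CP29 and CP26 are the monomeric, or minor, chlorophyll-binding antenna proteins of photosystem II. In the green alga Chlamydomonas reinhardtii they are encoded by LHCB4 (locus CHLRE_17g720250v5) and LHCB5 (locus CHLRE_16g673650v5). Both sit between the trimeric major antenna and the photosystem II core and pass excitation energy to it, and CP29 is also phosphorylated and relocated when the antenna is redistributed between the photosystems. Like the other light-harvesting proteins, they bind chlorophylls together with xanthophylls, among them lutein and violaxanthin. The 2 loci were taken from the array annotation of locus tags and are 2 of the 100 loci that it assigns to spots. They were selected on their measured strain ratios before and after the shift to high light, so these ratios are given below as descriptions without a test.

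The study used 12 two-colour cDNA slides on which total RNA of wild type CC-125 and of the double mutant npq1 lor1 was hybridised together. The groups were cultures of both strains grown in low light, and cultures of both strains after 1 h or 6 h of high light. There were 2 biological samples in each of the 3 groups, and a pair of slides with the strains exchanged between the channels was made from each. The npq1 mutation blocks formation of zeaxanthin from violaxanthin and lor1 blocks formation of lutein, so the mutant lacks pigments that minor antenna proteins can bind and that protect the chloroplast from excess light. The labels name 1 strain for each genotype and give no other agent or treatment. The question the design addresses for the minor antenna is whether wild type and mutant held different shares of their transcripts under either light.

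Every value is a log2 ratio of the 2 strains as the authors normalized it. Its likely direction is wild type over npq1 lor1. That is the order of the strains in the titles, and it follows if channel 1 was Cy3, which the labels do not state. A negative value would then mean more transcript in npq1 lor1. A ratio compares shares of the labelled RNA, so that a change in 1 transcript and a change in the RNA that a cell holds cannot be told apart.

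The slides went partly against this reading. Across elements, as the sets of copies of 1 clone are called here, slides with exchanged strains correlated with Pearson's r from -0.57 to 0.13, and 33 of the 36 such pairs lay below 0. Slides with the same strain in channel 1 correlated with r from 0.31 to 0.83 over 30 pairs. Slide medians ran from 0.04 to 0.17 where wild type was in channel 1 and from -0.17 to -0.02 where npq1 lor1 was. Values of exactly 0 were set aside as missing and made up 7.36% to 43.4% of the 11520 spots on a slide. The slides of biological sample 2 with wild type in channel 1 had the most zeros, 5000 spots at 1 h and 4979 at 6 h. The ratios of both loci are therefore given for both orientations and both biological samples. If the slides with npq1 lor1 in channel 1 are turned in sign, the mean of a pair becomes the deposited ratio on its slide with wild type in channel 1 minus the mean of the pair. This value is called the exchange offset here. Ranks, and shares where they were counted, are also given with the sign turned in this way.

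Each locus stood on the array as 1 element of 4 spots. The CP29 clone occupied spots 679, 3559, 6439 and 9319, and the CP26 clone spots 1778, 4658, 7538 and 10418. Of 48 possible readings per locus, 44 remained for CP29 and 45 for CP26 after zeros were set aside. Negative readings made up 41 of the 44 for CP29 and 39 of the 45 for CP26. No slide had fewer than 3 copies of either clone. The SD between copies on a slide had a median of 0.0669 for CP29 and 0.174 for CP26, with highest values of 0.256 and 0.411, both at 6 h in biological sample 1 with wild type in channel 1. It exceeded the median SD of all elements on that slide on 3 of 12 slides for CP29 and on 8 of 12 for CP26.

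In low light CP29 had a log2 ratio of -0.68 in biological sample 1 with wild type in channel 1 and of -0.12 on the exchanged slide. Biological sample 2 had -0.79 and -0.33. All 16 copies were negative, and in both samples the slide with wild type in channel 1 was farther from 0. Averaged over exchanged slides, the 2 biological samples had -0.40 and -0.56, which gave a mean of -0.48 ± 0.11 (SD, n = 2), a 1.40-fold difference. Of the 2396 elements tested in low light, 23 had a lower mean. The mean with the sign turned was -0.26, for which 46 elements were lower and 614 were larger in size.

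After 1 h of high light the CP29 ratio lay near 0 on every slide. Biological sample 1 had -0.08 with wild type in channel 1 and -0.13 on the exchanged slide, and biological sample 2 had -0.06 and -0.11. Of the 14 copies measured, 12 were negative, between -0.33 and 0.08. The mean was -0.09 ± 0.01 (SD, n = 2), a 1.07-fold difference, and 389 of 2272 elements were lower. With the sign turned the mean was 0.02, and 696 elements were lower. The 4 slides of this time point thus agreed more closely for CP29 than those of low light, at a size that is small against the ratios before the shift.

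At 6 h of high light CP29 was negative on all 4 slides, but unevenly so. Biological sample 1 had -0.25 with wild type in channel 1 and -0.45 on the exchanged slide. Biological sample 2 had -0.86 and -0.10, so its 2 slides stood far apart. The means of exchanged slides were -0.35 and -0.48, with an average of -0.41 ± 0.09 (SD, n = 2), a 1.33-fold difference, and 50 of 2139 elements were lower. Turned in sign, the mean was -0.14, and 187 elements were lower and 945 larger in size.

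In low light CP26 was negative on all 4 slides and nearly equal on the exchanged slides of biological sample 1, with -0.30 and -0.34. Biological sample 2 had -0.41 with wild type in channel 1 and -0.60 on the exchanged slide. All 15 copies measured were negative. The means of exchanged slides were -0.32 and -0.50, and the average was -0.41 ± 0.13 (SD, n = 2), a 1.33-fold difference. Of the 2396 elements, 32 had a lower mean. With the sign turned the mean was 0.06, for which 844 elements were lower and 1926 larger in size, so that CP26 then stood far from CP29 in the order of all elements.

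At 1 h CP26 had opposite signs on exchanged slides. With wild type in channel 1 it had 0.16 in biological sample 1 and 0.15 in biological sample 2. With npq1 lor1 in channel 1 it had -0.56 and -0.75. Its averages of -0.20 and -0.30 and the mean of -0.25 ± 0.07 (SD, n = 2), a 1.19-fold difference, therefore stand for no single slide. The SD leaves out the spread between exchanged slides. After subtraction of the regional trend, which is the running median of nearby spots, the mean was -0.14.

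At 6 h CP26 had its most negative ratios, and all 4 slides agreed in sign. Biological sample 1 had -1.01 with wild type in channel 1 and -0.90 on the exchanged slide, and biological sample 2 had -1.12 and -0.75. All 15 copies measured were negative, from -1.58 to -0.51. The averages of -0.95 and -0.93 differed by less than either pair of exchanged slides, and the mean was -0.94 ± 0.01 (SD, n = 2), a 1.92-fold difference. Of 2139 elements, 5 had a lower mean. The mean with the sign turned was -0.12, for which 227 elements were lower and 1079 larger in size. On single slides as deposited between 3 and 47 elements were lower, out of 2202 to 2699.

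**Figure D1:**
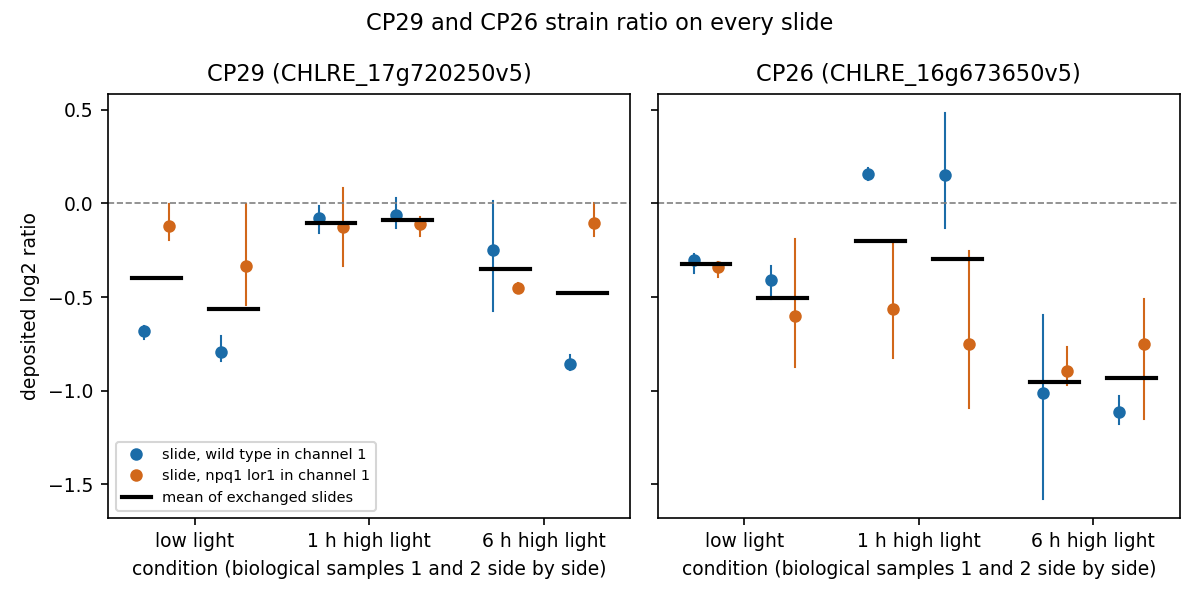
Deposited log2 ratios (vertical axis) of CP29 (left) and CP26 (right) in low light and after 1 h or 6 h of high light. Dots are means of the copies on a slide, coloured by the strain in channel 1, thin lines run from the lowest to the highest copy, and black bars are the means of a pair of exchanged slides; CP26 lies between -1.12 and -0.75 on all 4 slides at 6 h and takes both signs at 1 h.

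The choice of the 2 loci used the strain contrast at every time point, so no call is given for them. In low light 4.67% of elements were negative on all 4 slides, at 1 h 3.74% and at 6 h 10%, which was the case for CP29 at each time and for CP26 in low light and at 6 h. With the sign turned the shares negative on all 4 slides were 8.97%, 6.29% and 7.01%, and neither locus was among them at any time. With that sign CP26 at 1 h had a mean of 0.41, for which 2079 of 2272 elements were lower and 207 larger in size. The share of all elements positive on all 4 slides was not counted.

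**Figure D2:**
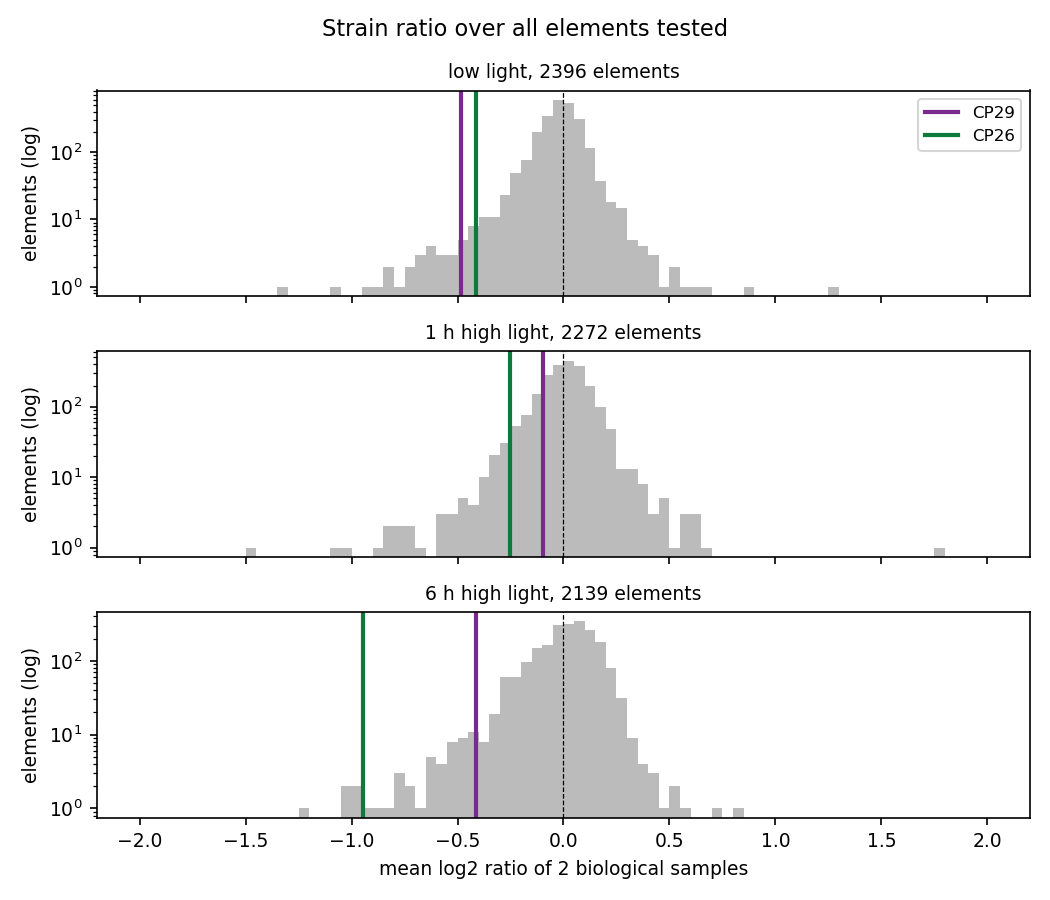
Distribution of the mean log2 ratio as deposited (horizontal axis) over all elements tested, as the number of elements on a log axis, with a panel for each time point. Vertical lines mark CP29 and CP26. Both lie in the lower tail in low light (-0.48 and -0.41), and CP26 lies at -0.94 at 6 h. CP29 lies near 0 at 1 h (-0.09), with 17.1% of elements lower.

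The courses of both loci over the shift are described without a test, for the same reason. For CP29 the ratio was closer to 0 at 1 h than in low light by 0.39 (SE 0.10, limma), and both samples at 1 h lay above both samples of low light, as in 20.8% of 2195 elements. From 1 h to 6 h its ratio was lower by -0.32 (SE 0.10), again without overlap of the samples, as in 15.9% of 1925 elements. Of all elements, 2170 of 2195 had a lower difference for low light to 1 h and 63 of 1925 for 1 h to 6 h. Between low light and 6 h the ratios differed by 0.07 (SE 0.10), with 1184 of 2032 elements lower, and the samples overlapped. That difference was -0.01 without biological sample 2 of low light, 0.15 without sample 1, and -0.05 after subtraction of the regional trend, so its sign was not settled. With the sign turned, the differences were 0.28 from low light to 1 h, -0.16 from 1 h to 6 h and 0.12 from low light to 6 h (SE 0.13 each). In the same order, 2185 of 2195, 381 of 1925 and 1843 of 2032 elements had a lower difference. The samples then overlapped from 1 h to 6 h and from low light to 6 h. For the turned sign the share of all elements without overlap was not counted.

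For CP26 the ratio at 1 h was above that in low light by 0.16 (SE 0.10), without overlap of the samples, as in 20.8% of 2195 elements. It was above by 0.25 without biological sample 1 of low light and by 0.07 without sample 2, and by 0.25 after subtraction of the regional trend. At 6 h it was below that in low light by a difference of -0.53 (SE 0.10), or -0.34 after subtraction of the regional trend, and the samples did not overlap, as in 19.5% of 2032 elements. From 1 h to 6 h the difference was -0.69 (SE 0.10), also without overlap, as in 15.9% of 1925 elements. Of all elements, 1935 of 2195 had a lower difference for low light to 1 h, 24 of 2032 for low light to 6 h and 10 of 1925 for 1 h to 6 h. The loci were chosen with their ratios known, so these ranks are descriptions. Turned in sign, the differences were 0.35 from low light to 1 h, -0.18 from low light to 6 h and -0.53 from 1 h to 6 h (SE 0.11 each). Of all elements, 2194 of 2195, 313 of 2032 and 0 of 1925 then had a lower difference, in the same order. No element passed limma's test of such a change. Overlap of the samples is left out here, as its share over all elements was not counted for the turned sign.

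Set against each other within biological samples, the loci were closer in low light than at 6 h with the deposited sign. CP26 minus CP29 was 0.08 and 0.06 in the samples of low light, -0.10 and -0.21 at 1 h, and -0.61 and -0.45 at 6 h. The mean differences were 0.07 ± 0.01, -0.16 ± 0.08 and -0.53 ± 0.11 (SD, n = 2 each). The same differences turned in sign were 0.30 and 0.33 in low light, 0.34 and 0.43 at 1 h, and -0.16 and 0.19 at 6 h, so that this order did not hold. These are differences between ratios and say nothing about which transcript was more abundant, since levels of different probes were not compared.

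The difference between exchanged slides is a measure that the choice of the loci did not use. It is the exchange offset. If the ratios run the same way on all slides it holds effects of dye and slide. If the slides with npq1 lor1 in channel 1 had not been turned, it would hold the strain difference in place of the mean. It was tested against 0 with limma at each time point, two-sided and adjusted by Benjamini-Hochberg over all elements, which gave 6 tests for the 2 loci.

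CP26 had an exchange offset of 0.41 ± 0.06 at 1 h (SD, n = 2, limma adjusted p = 7.16e-04), from means of 0.16 with wild type in channel 1 and -0.66 with npq1 lor1 there, positive in both biological samples. Such offsets were common: 796 of 2272 elements were called at 1 h (35%), and 207 had a larger size than CP26. With slide medians subtracted the exchange offset was 0.30 and passed (limma adjusted p = 0.0191). The call was lost after subtraction of the regional trend, where the exchange offset was 0.15 (limma adjusted p = 0.212). On the slides with npq1 lor1 in channel 1 the running median at the CP26 spots was -0.34 in biological sample 1 and -0.39 in biological sample 2. With wild type in channel 1 it was 0.23 and 0.07. In low light and at 6 h the exchange offsets of CP26 were 0.06 ± 0.06 (limma adjusted p = 0.587) and -0.12 ± 0.09 (limma adjusted p = 0.279).

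CP29 had an exchange offset of -0.26 ± 0.04 in low light (SD, n = 2, limma adjusted p = 0.0411), from means of -0.74 with wild type in channel 1 and -0.23 with npq1 lor1 there, negative in both biological samples. In low light 842 of 2396 elements were called (35.1%), 759 of them positive and 83 negative, and the median over all elements was 0.13, so that CP29 lay on the side of fewer elements. The offset passed with slide medians subtracted (limma adjusted p = 0.0150) and after subtraction of the regional trend (limma adjusted p = 0.00921). It also passed with each time point's own spread (limma adjusted p = 0.00295). With the replicate block the call was lost (limma adjusted p = 0.0541). Without biological sample 1 or 2 of low light its call was lost, with limma adjusted p = 0.263 and 0.139. At 1 h the exchange offset was 0.02 ± 0.00060 (limma adjusted p = 0.879). At 6 h it was -0.14 ± 0.34 (limma adjusted p = 0.310), with 0.10 and -0.38 in the 2 biological samples, where 479 of 2139 elements were called (22.4%). Without biological sample 1 of 6 h it was -0.38 and passed (limma adjusted p = 0.0160), and after subtraction of the regional trend it was -0.27 (limma adjusted p = 0.0443).

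Other scalings moved the offsets, as the median of all elements lay above 0. With slide medians subtracted and after subtraction of the regional trend, CP29 had -0.38 and -0.43 in low light. Its offset at 1 h turned from 0.02 to -0.09 and -0.11, and that of CP26 in low light from 0.06 to -0.06 and -0.15.

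**Figure D3:**
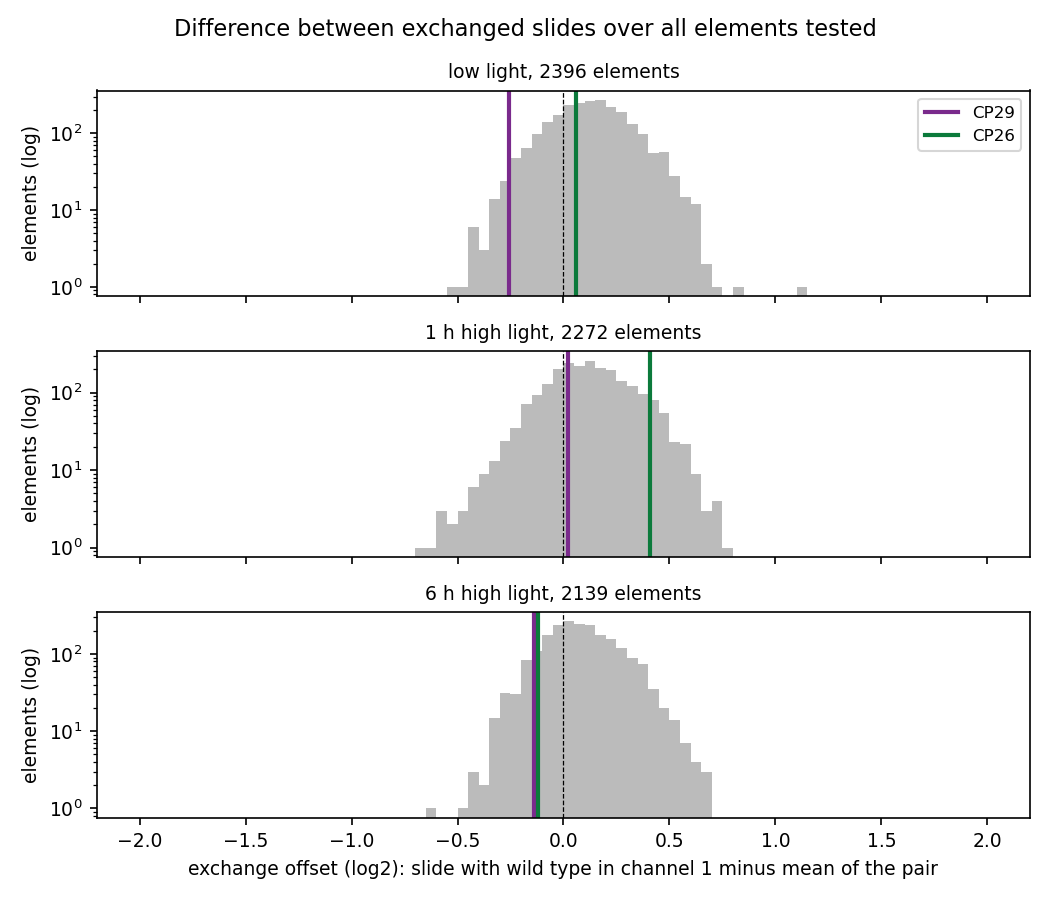
Distribution of the mean exchange offset (horizontal axis, log2) over all elements tested, as the number of elements on a log axis, with a panel for each time point. Vertical lines mark CP29, at -0.26 in low light, and CP26, at 0.41 at 1 h; at 6 h both lie at -0.14 and -0.12, below the median of all elements of 0.07.

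The ratio of the loci was also set against that of spots with neighbouring spot numbers. CP29 lay below the median of its slide on 10 of 12 slides and below the running median of the neighbouring spots on 10 of 12. CP26 lay below both on 11 of 12 slides. At 6 h the running median at the CP26 spots was itself negative on all 4 slides, from -0.37 to -0.08, and with it subtracted the mean at 6 h was -0.73. At the CP29 spots it ran from -0.08 to 0.34 at 6 h. The part of such regional values in the ratios was not tested.

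Other photosynthesis loci were looked up from 6 lists of 56 locus tags. The lists were drawn up by locus tag from general knowledge and with earlier results of these data known, and the array annotation and the gene table give no product names, so single loci are left unnamed here. On the array 12 of the 56 loci were found, on 14 elements. These were 2 loci of the light-harvesting antenna list, 1 of photosystem II subunits, 3 of photosystem I subunits, 4 of electron carriers and chloroplast ATP synthase, 2 of chlorophyll and carotenoid synthesis and 0 of the list of antenna kinases and insertion factors.

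In low light 7 of the 13 related elements tested had a negative ratio and 0 passed limma's test at an adjusted p under 0.05 (4 at an unadjusted p under 0.05), where 8 of 2396 elements passed (0.334%), and the median ratio was -0.06 against -0.01 over all elements. At 1 h 12 of 14 were negative, 0 passed limma's test (7 at an unadjusted p under 0.05) where 16 of 2272 elements did (0.704%), and the median was -0.16 against 0.01. At 6 h all 13 tested were negative, from -1.03 to -0.0097, and the median was -0.31 against 0.03 over all elements. At that time 6 of the 13 passed with a negative ratio, where 1.68% of all elements did (2.01% in either direction), and 0 passed with a positive one. The lists were drawn up with earlier results of these data known. This count and the calls of single related loci below are therefore descriptions and no separate evidence. Without biological sample 2 of 6 h, 2 of 14 passed and 11 of 14 were negative. After subtraction of the regional trend, 5 of 13 passed and 11 of 13 were negative.

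These counts held for the deposited sign. Turned in sign, 2 of the 13 passed with a negative value in low light, where 3.46% of all elements did. In the positive direction 1 passed, where 31.7% did. At 1 h 1 of 14 passed with a negative value and 1 with a positive one, where 3.87% and 31.2% did. With the sign turned, 7 of the 13 were negative at 6 h and their median was -0.0032 against 0.07 over all elements. Then 1 passed with a negative value, CHLRE_03g182551v5 at -0.42 (limma adjusted p = 0.00211), where 2.99% of all elements did. Another 1 passed with a positive value, element 2429 of CHLRE_06g259900v5 at 0.22 (limma adjusted p = 0.0410), where 19.4% did. The other 5 related elements that passed with the deposited sign lay between -0.16 and 0.10 and did not pass.

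At 6 h the lowest of the 13 was CHLRE_08g365900v5 of the light-harvesting antenna list, with ratios of -0.91 and -1.16 in the 2 biological samples and a mean of -1.03 ± 0.18 (SD, n = 2, limma adjusted p = 0.00358). It was the single related element below CP26. Like CP26 it was closer to 0 before, with -0.25 in low light (limma adjusted p = 0.646) and -0.33 at 1 h (limma adjusted p = 0.293). Turned in sign, it had 0.36 in low light (limma adjusted p = 0.00249), 0.03 at 1 h (limma adjusted p = 0.830) and 0.10 at 6 h (limma adjusted p = 0.385). The list name does not give the function of CHLRE_08g365900v5, so its likeness to CP26 is one of values alone. The other locus of the light-harvesting antenna list, CHLRE_04g232104v5, was measured in both samples at 1 h alone, with -0.50 ± 0.27 (SD, n = 2, limma adjusted p = 0.111). In the photosystem II list CHLRE_08g372450v5 passed at 6 h with -0.63 ± 0.09 (SD, n = 2, limma adjusted p = 0.00776), from -0.32 in low light and -0.35 at 1 h. Its call was lost without biological sample 2 of 6 h (limma adjusted p = 0.0775).

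Among photosystem I subunits CHLRE_05g238332v5 passed at 6 h with -0.46 ± 0.02 and CHLRE_10g420350v5 with -0.50 ± 0.12 (SD, n = 2, limma adjusted p = 0.0148 and 0.00899), while CHLRE_09g412100v5 had -0.11 ± 0.12 (adjusted p = 0.469). The call of CHLRE_05g238332v5 was lost without either sample of 6 h and that of CHLRE_10g420350v5 without sample 1. Of the list of electron carriers and ATP synthase, CHLRE_03g182551v5 passed with -0.61 ± 0.33 (SD, n = 2, limma adjusted p = 0.0200). Its samples were unequal, and it had -0.38 without biological sample 2 of 6 h, where the call was lost (limma adjusted p = 0.132), and -0.84 without sample 1. The call was also lost without either sample of 1 h and after subtraction of the regional trend, so it was lost in 4 of 11 alternatives. The highest ratio of that list was that of element 2429, 1 of 3 elements of CHLRE_06g259900v5, with -0.0097. Of the synthesis list CHLRE_03g158000v5 passed with -0.53 ± 0.18 (SD, n = 2, limma adjusted p = 0.0108), not without sample 2 (limma adjusted p = 0.0996), and CHLRE_12g509650v5 had -0.06 ± 0.11 (adjusted p = 0.633). CP29, at -0.41, lay between the related elements that passed at 6 h and those that did not. No related element of the 13 tested passed limma's test of a change between time points. Among all elements 1 of 2195 passed for low light to 1 h (0.0456%), 1 of 2032 for low light to 6 h (0.0492%) and 4 of 1925 for 1 h to 6 h (0.208%). At an unadjusted p under 0.05 there was 1 related element for low light to 1 h, 8 for low light to 6 h and 5 for 1 h to 6 h.

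**Figure D4:**
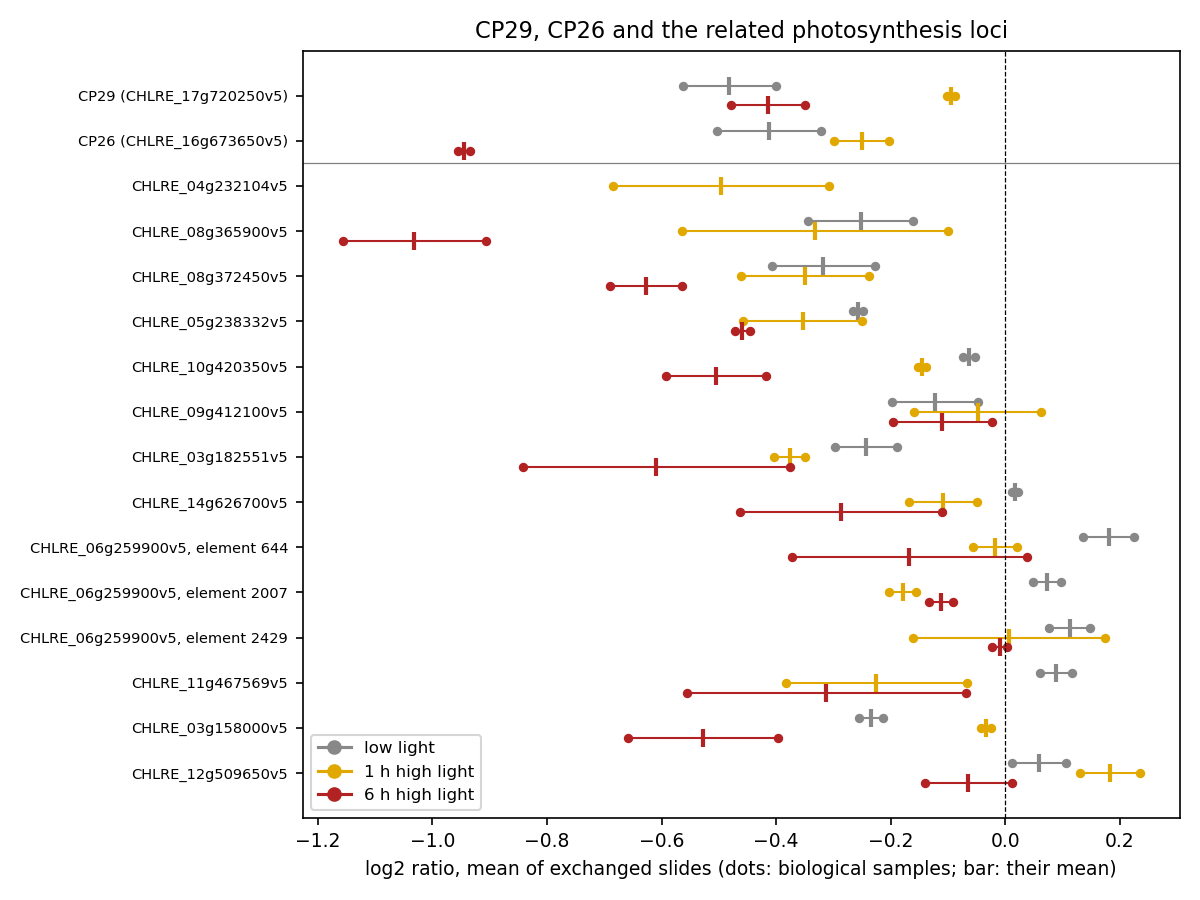
Log2 ratio (horizontal axis) of CP29, CP26 and the 14 elements of related photosynthesis loci (rows, by locus tag). Dots are biological samples (means of exchanged slides), bars their mean and colours the time points; all 13 related elements tested at 6 h have a negative mean (11 of 13 after subtraction of the regional trend, 7 of 13 with the sign turned), and CHLRE_08g365900v5 and CP26 lie farthest from 0.

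The course over the 6 biological samples was compared with that of the 74 other locus-tagged elements with values in all of them. These correlations are descriptions over 6 points that share slides and time points among all elements. CP29 was most like CHLRE_03g144807v5 (Pearson's r = 0.91), with mean ratios of -0.21, 0.59 and -0.16 in the order of time. CHLRE_09g400775v5 (element 64) and CHLRE_02g085450v5 followed with r = 0.84 and 0.83. CHLRE_12g485050v5 had r = 0.79 and CHLRE_12g509650v5 r = 0.77. The likeness of these 5 is one of shape, since their ratios in low light and at 6 h were all closer to 0 than those of CP29. Of all 1894 other elements with values in the 6 biological samples, 19 had a higher r than the first of the 5 and 71 than the last.

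CP26 was most like CHLRE_03g158000v5 and CHLRE_08g365900v5, each with r = 0.90, followed by CHLRE_10g420350v5 with r = 0.89. CHLRE_03g204650v5 had r = 0.88, with mean ratios of -0.09, -0.08 and -0.31 in the order of time, and CHLRE_08g372450v5 had r = 0.87. Of these 5, 4 stood in the lists of related loci and passed at 6 h. They were chosen by their likeness to CP26, whose ratio was lowest at 6 h, so this count is no separate evidence. Of all 1894 other elements with values in the 6 biological samples, 28 had a higher r than the first of the 5 and 46 than the last. CP29 and CP26 correlated with each other with r = 0.55, which placed CP26 at rank 11 among the elements most like CP29 and CP29 at rank 18 among those most like CP26. Turned in sign, they correlated with r = 0.57. The 5 elements named for CP29 then had r from -0.12 to 0.85 and the 5 named for CP26 from -0.32 to 0.92.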

How the data were processed

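Total RNA of 2 strains was measured on 12 two-colour slides. The authors deposited log2 ratios normalized with SNOMAD, per the labels, written as Cy3 over Cy5 where wild type was in channel 1 and as Cy5 over Cy3 where npq1 lor1 was. No sign was turned. Not given in the sources used here are the centring, each channel's dye, any background correction and any filter of dim spots. The table has 0 columns of other samples.

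The 11520 spots were read as 2880 elements of 4 copies. Values of exactly 0 were set as missing, copies averaged (at least 2 per slide), and the exchanged slides of a biological sample averaged to 1 replicate. The labels call the samples biological replicates but name no separate cultures, so p-values measure the spread between these samples. Limma 3.58.1 in R 4.3.3 was fitted over all elements, with a mean per time point and 1 moderated spread per element (prior degrees of freedom 5.66, prior SD 0.108; for exchange offsets 14.9 and 0.115), two-sided, Benjamini-Hochberg adjustment, threshold 0.05. The limma code was tested on simulated data. Loci came from the platform's annotation: 420 spots had 1 locus, 4 had several and were not named. The array names no genome build, so coordinates are left out. No sequence of the probes or loci was used here.

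The loci, lists and tests were chosen with earlier results of these data known. Named were the 2 loci, related loci called at any time or lowest or highest of their list at 6 h, and the 5 locus-tagged elements most correlated with each locus over 6 biological samples; CHLRE_04g232104v5 was added after its values were seen. Alternatives kept zeros, subtracted slide medians or the running median of neighbouring spots, used each time point's own spread or a replicate block, and left out each biological sample; turning the sign of the slides with npq1 lor1 in channel 1 was added after seeing the data.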

Additional observations from a re-analysis of the deposited data

How the results depend on the processing

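Both loci kept negative mean ratios at all 3 times under the alternatives run, except with the sign of the slides with npq1 lor1 in channel 1 turned. Without 1 biological sample each, CP29 ran from -0.56 to -0.40 before the shift, -0.10 to -0.09 at 1 h and -0.48 to -0.35 at 6 h, and CP26 from -0.50 to -0.32, -0.30 to -0.20 and -0.95 to -0.93. Keeping zeros gave -0.084 for CP29 at 1 h, and for CP26 -0.87 at 6 h and -0.61 for 6 h minus 1 h. Subtracting the running median of neighbouring spots gave -0.069 for CP29 at 1 h, and for CP26 -0.14 at 1 h, -0.73 at 6 h, -0.34 for 6 h minus low light and -0.59 for 6 h minus 1 h.

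With that sign turned, an alternative added after seeing the data, CP29 had -0.26, 0.023 and -0.14 in the order of time, with differences of 0.28 (1 h minus low light), 0.12 (6 h minus low light) and -0.16 (6 h minus 1 h). CP26 had 0.057, 0.41 and -0.12, with differences of 0.35, -0.18 and -0.53. Elements called then numbered 842, 796 and 479 and 0 for each change, and 1 related locus was called with a negative value at 6 h.

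The exchange offset of CP29 in low light (-0.26) was not called with the replicate block (limma adjusted p = 0.0541), nor without 1 low light sample (-0.28 to -0.23). At 6 h it was called with the running median subtracted, at -0.27, and ran from -0.38 to 0.10 without 1 sample. That of CP26 at 1 h was not called with the running median subtracted, at 0.15. The cause was not tested.

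Counts of elements called before the shift (8), at 1 h (16) and at 6 h (43) depended on the settings. Each time point's own spread gave 114 and 81 for the first 2, keeping zeros 1 and 9, and the running median 5 in low light. Without 1 sample they ran from 1 to 20, 1 to 37 and 30 to 57. For changes to 1 h, to 6 h and from 1 h to 6 h (1, 1 and 4), own spread gave 2 for the first and 19 for the last, zeros kept 0 for the second and 1 for the last, slide medians subtracted 0 for the second, and the running median 0 and 1 for the second and last. Without 1 sample they ran from 0 to 3, 0 to 11 and 0 to 19. Calls of exchange offsets (842, 796 and 479) were 445, 472 and 311 with slide medians subtracted, 374, 512 and 299 with the running median, and 36 at 6 h with zeros kept. Without 1 sample they ran from 282 to 943, 354 to 880 and 103 to 522. Related loci called at 6 h (6), under the same alternatives applied after seeing the data, numbered 2 to 6 without 1 sample.

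Deviations of equally numbered biological samples correlated with r = 0.24 between low light and 1 h over 1895 elements. Between low light and 6 h r was -0.03, and between 1 h and 6 h it was -0.16. These had no common sign, and the numbers were not taken as pairs in the main fit. The replicate block, which uses the numbers, gave 27 calls in low light (8 without it). For the changes it gave 3, 13 and 16 (1, 1 and 4 without it). The number of slides limits the precision, and signal over background is unknown.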
